A study of Mus musculus with 4 samples.

Results

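The genes of the cytosolic ribosomal proteins were examined in blood monocytes with and without RBP-J, the DNA-binding protein through which Notch receptors act on their target genes. Members were chosen by symbol (Rpl or Rps followed by a number, together with Rplp0, Rplp1, Rplp2 and Rpsa), leaving out the Rps6k kinases and symbols of pseudogenes. The rule took 85 of the 23995 gene symbols of the deposited table. They were 45 genes of the large subunit, 30 genes of the small subunit (together called core subunit genes), 8 paralogs of subunit genes, and 2 genes that match by name and encode no subunit (Rps19bp1 and Rpl7l1). The study extracted total RNA from sorted Ly6Clo and Ly6Chi blood monocytes of RBP-J-deficient mice (Rbpj fl/fl Lyz2 cre/cre) and control mice (Rbpj +/+ Lyz2 cre/cre). This RNA was made into 4 sequenced libraries, 1 per genotype and subset. Both genotypes thus carry Cre at the Lyz2 locus, which is active in myeloid cells generally and not in one monocyte subset. The control libraries are titled WT in the sample labels, and their genotype label is Lyz2-Cre. The study's methods describe sex- and age-matched mice, and whether a library pooled several animals was not given in the sources used here. With 1 library in each group, no difference below has a replicate check, and no test of genotype or subset was made.

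A ribosome is built from ribosomal RNA and a fixed set of proteins, each usually present as 1 copy, and the genes of these proteins are therefore expressed together in almost every cell. Their mRNAs begin with a C followed by a run of C and T (U in the RNA), the 5′ terminal oligopyrimidine or TOP element, through which the kinase mTOR and the RNA-binding protein Larp1 adjust their translation. Blood Ly6Chi monocytes are the precursors of Ly6Clo monocytes, the longer-lived subset that patrols the vessel wall.

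The start of 6 core subunit genes is shown first because these genes had some of the largest ratios between libraries or the highest level. A pyrimidine run near the start was found in most members searched. Whether a run lies at the very 5′ end of the mRNA, as a TOP element does, was not determined. The runs were searched on the sense strand as a C followed by at least 7 letters that were C or T, starting within 50 bases of the gene start that RefSeq annotates on GRCm38.p6, and capitals mark the run.
Rpl26 (chr11:68901581-68901610, plus strand): gtgtagttCTCTTTCCTTTTgcggccatcg
Rpl35 (chr2:39005117-39005146, minus strand): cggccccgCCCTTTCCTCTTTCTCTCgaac
Rpl37a (chr1:72711276-72711305, plus strand): cattgcgtCCCTTCCTCTTCggacttgggc
Rpl15 (chr14:18270969-18270998, minus strand): ggagaaagCCTTCTTCCTTTCCTCTggcgg
Rps25 (chr9:44407684-44407713, plus strand): ccaccgggCTTCCTTTTTTTCCgacatctt
Rps9 (chr7:3704028-3704057, plus strand): cgccttgtCTCTCTTTgtctcgggcctgag
Such a run was present in 56 of 74 promoter windows of 63 members (75.7%), against 28.8% of 32851 windows of all genes. The 51 members with a run had a median log2 ratio of 0.37 between RBP-J-deficient and control Ly6Clo monocytes and the 12 without had 0.35, values close to each other.

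The letters of the RBP-J motif, GTGGGAA, searched on both strands of the RefSeq promoter window around each annotated start, are shown for the 6 members that held them (8.11% of the members' windows against 6.38% of all windows). Capitals mark the match, which is written TTCCCAC where it lies on the other strand.
Rpl3l (chr17:24727649-24727675, plus strand): tggtgagtgtGTGGGAAcactctccct
Rpl22l1 (chr3:28805314-28805340, plus strand): cggctccggcTTCCCACtcgaagacgc
Rpl23 (chr11:97782516-97782542, minus strand): aagcgcagctTTCCCACgcagaacggt
Rpl36a (chrX:134585610-134585636, plus strand): tggtcgccgtTTCCCACggctctgagg
Rpl39 (chrX:37085286-37085312, minus strand): ccggtttgggTTCCCACggccccatgg
Rps3a1 (chr3:86142847-86142873, minus strand): aaacagagagTTCCCACcctcggggca
The log2 ratios of these 6 genes ran from 0.15 to 1.40 in Ly6Clo (median 0.48) and from -0.07 to 1.93 in Ly6Chi monocytes (median 0.27), with Rpl3l at the top of both ranges. The 57 members without the letters had medians of 0.34 and 0.15 and ranges from -0.62 to 1.86 and from -0.26 to 0.73, which overlap those of the 6 genes. A match is a description of the sequence and does not show that RBP-J binds there. The ETS family letters CCGGAAG were present in 35.1% of members' windows and 8.86% of all windows, the YY1 letters AAGATGG in 14.9% and 6.34%, and the TATA box letters TATAAA in 9.46% and 13.6%, each searched on both strands.

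The values are FPKM, in which the fragments of a gene are divided by the length of its transcript and by the total of the library, so levels of different genes can be compared per length. The depth of the libraries is unknown. Summed over all genes, FPKM ranged from 711555 to 885648 and was highest in RBP-J-deficient Ly6Clo monocytes. For Actb the estimate failed in the RBP-J-deficient libraries, where its value is 0, while it stood at 27260 in control Ly6Clo and 22795 in control Ly6Chi monocytes. Rbpj, the targeted gene, stood at 8.30 (control) and 2.43 (RBP-J-deficient) in Ly6Clo monocytes and at 14.4 and 2.85 in Ly6Chi monocytes. All 10 monocyte markers were above 0 in all 4 libraries. Differences were measured as the log2 ratio of (FPKM + 1), a scale on which changes of low genes appear smaller than they are, over the 10240 genes that reached an FPKM of 1 in any library, called expressed genes here, among them 84 of the 85 members. In sorted bulk cells, fewer cells of a type and less RNA per cell cannot be told apart.

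Ribosomal protein genes were among the most highly expressed genes of all 4 libraries. The median FPKM of the 75 core subunit genes was 301 in control Ly6Clo, 340 in RBP-J-deficient Ly6Clo, 368 in control Ly6Chi and 407 in RBP-J-deficient Ly6Chi monocytes, while the median of all expressed genes was between 7.93 and 8.71. Between 49 and 57 members were among the 500 genes with the highest FPKM of a library. Together the members held 4.60% of the summed FPKM in control Ly6Clo, 4.87% in RBP-J-deficient Ly6Clo, 5.85% in control Ly6Chi and 6.12% in RBP-J-deficient Ly6Chi monocytes. With Actb left out of the sums the shares were 4.78%, 4.87%, 6.04% and 6.12%, so the share was higher in Ly6Chi than in Ly6Clo monocytes of either genotype, and nearly level between genotypes.

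**Figure D1:**
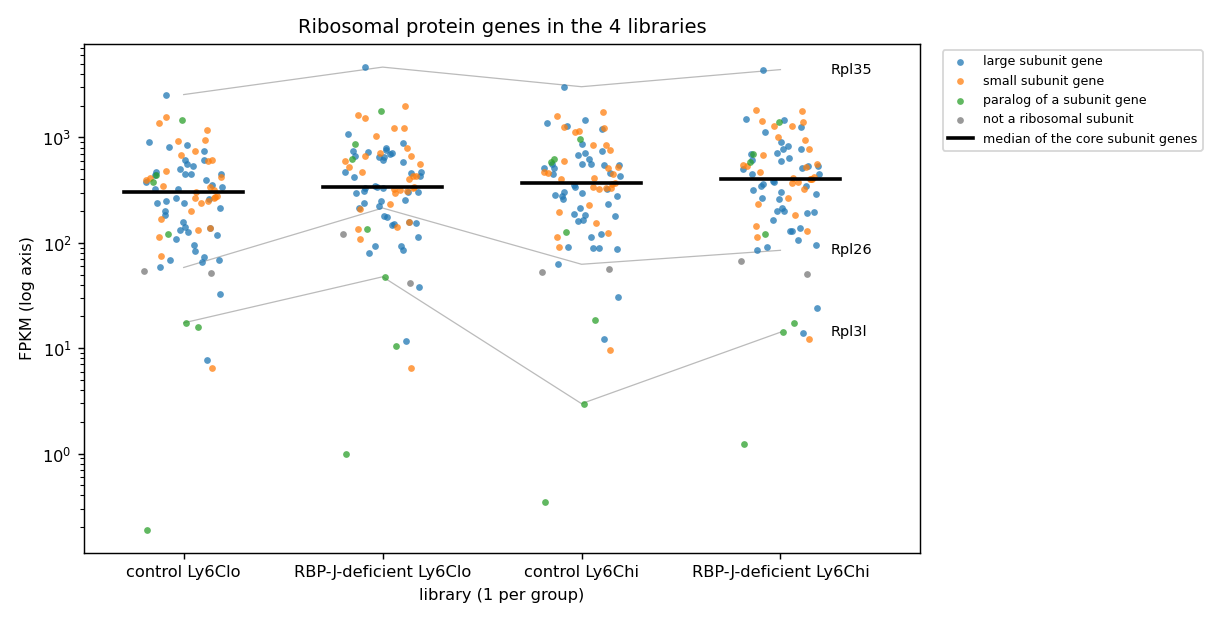
FPKM (log axis) of the 84 ribosomal protein genes above 0 in every library, 1 point per gene, coloured by class, in the 4 libraries. Black bars are the medians of the core subunit genes (301, 340, 368 and 407 from left to right), and grey lines follow Rpl35, Rpl26 and Rpl3l.

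Although ribosomal proteins are mostly present at 1 copy per ribosome, the FPKM of their genes was spread widely. Rpl35, a large subunit protein next to the exit of the peptide tunnel, had the highest level, with 2552 in control Ly6Clo, 4650 in RBP-J-deficient Ly6Clo, 3030 in control Ly6Chi and 4404 in RBP-J-deficient Ly6Chi monocytes. It ranked 25, 20, 24 and 19 among all symbols of these libraries. Small subunit genes and a retrogene described further on were among the next in control Ly6Clo monocytes. Rps19, a small subunit protein whose loss of function causes Diamond-Blackfan anaemia in humans, had 1551, 1532, 1259 and 1422 in the same order. Rps14, which is needed to process the RNA of the small subunit, had 1361, 1632, 1581 and 1838. At the other end, Rps15a had only 6.44, 6.49, 9.58 and 12.2, the lowest of the core subunit genes in each library. The transcript matched to it here has 5179 bases, against a median of 835 for core subunit genes. Stretches of 50 bases of it also occur in transcripts of 64 other genes. The part of length and of read assignment in its low value was not tested.

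The members of the ribosomal stalk, which recruits the elongation factors, stood at moderate to high levels. Rplp0, its base, had an FPKM of 752, 886, 1198 and 1269 in control Ly6Clo, RBP-J-deficient Ly6Clo, control Ly6Chi and RBP-J-deficient Ly6Chi monocytes. Its partner Rplp1 had 465, 660, 513 and 606, and Rplp2 had 263, 303, 325 and 345. For these 3 genes the lowest value was that of control Ly6Clo monocytes. The same library was lowest for Rps6, the small subunit protein phosphorylated by S6 kinases, with 266, 435, 364 and 405. It was also lowest for Rpl5 and Rpl11, which with ribosomal RNA form a particle that restrains Mdm2. Rpl5 had 83.4, 149, 88.4 and 129, and Rpl11 had 324, 421, 454 and 453. In all, 68 of the 84 members above 0 in every library had their lowest FPKM in control Ly6Clo monocytes, 9 in RBP-J-deficient Ly6Clo, 5 in control Ly6Chi and 2 in RBP-J-deficient Ly6Chi monocytes. This order depended on the scaling. When each library was rescaled to TPM (each library's FPKM brought to the same sum) without Actb, control Ly6Clo was lowest for 41 members and RBP-J-deficient Ly6Clo for 38. Neither count was made over all expressed genes, so whether the order is particular to the members is not known.

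Between genotypes, most ribosomal protein genes had a somewhat higher FPKM in RBP-J-deficient than in control Ly6Clo monocytes. The median log2 ratio of the 84 expressed members was 0.37, with an interquartile range from 0.20 to 0.52, and the median of all expressed genes was 0.02. Of the members, 74 were higher at any size, where 51.3% of all expressed genes were. Only 3 were at least 2-fold higher (8.97% of all expressed genes) and 0 were at least 2-fold lower (11.1% of all expressed genes). At a fold of 1.5, 20 were higher (23.0% of all expressed genes) and 1 was lower (22.0% of all expressed genes). The differences were thus small and shared, with few members far from the median. Markers of other cells also differed between these libraries, since the summed FPKM of 5 erythroid markers was 1583 (control) and 276 (RBP-J-deficient) and that of 7 B cell markers was 68.1 and 102. Their part in the result was not tested. The large subunit genes had a median of 0.38 and the small subunit genes of 0.32.

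The comparison with short genes of similar base composition gave a similar shift. These were 1565 expressed genes that are no member and lie within the middle range of the GC content of core subunit genes. Their transcript has at most 1759 bases, a length that 9 in 10 core subunit genes do not exceed. They had a median of 0.34 in Ly6Clo monocytes. Of these genes, 66.9% were higher. On TPM without Actb the median of the members was 0.01 and 43 of 84 were higher. The median of the short genes was 0.03 with 51.6% higher, and that of all expressed genes was -0.26 with 36.3% higher. The direction of 31 members turned with this rescaling, 43 were higher on both scales and 10 were lower on both. The rescaling shifts the log2 ratio of genes far above the pseudocount by -0.36 in Ly6Clo and by -0.15 in Ly6Chi monocytes. On both scales the median of the members thus lay close to that of short genes of similar GC and above that of all expressed genes. Among the 591 short genes of similar GC whose mean FPKM reached 50, a subset chosen after seeing the data, the median was 0.59 on FPKM and 0.23 on TPM without Actb, above the members on both scales. The 1873 other genes whose mean FPKM reached 50, of any length and GC, also had a median near that of the members, 0.39 on FPKM and 0.03 on TPM without Actb.

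In Ly6Chi monocytes the genotype ratio of the members was smaller. The median log2 ratio was 0.15, with an interquartile range from 0.03 to 0.25, against 0.00 for all expressed genes and 0.15 for short genes of similar GC. Of the 84 members, 68 were higher (50.4% of all expressed genes), 1 was at least 2-fold higher (2.64% of all expressed genes) and 0 were at least 2-fold lower (4.56% of all expressed genes). The large subunit genes had a median of 0.13 and the small subunit genes of 0.19. On TPM without Actb the median of the members was 0.01, and 43 of 84 were higher. All expressed genes had a median of -0.12 there with 40.0% higher, and short genes of similar GC 0.01 with 51.4% higher.

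**Figure D2:**
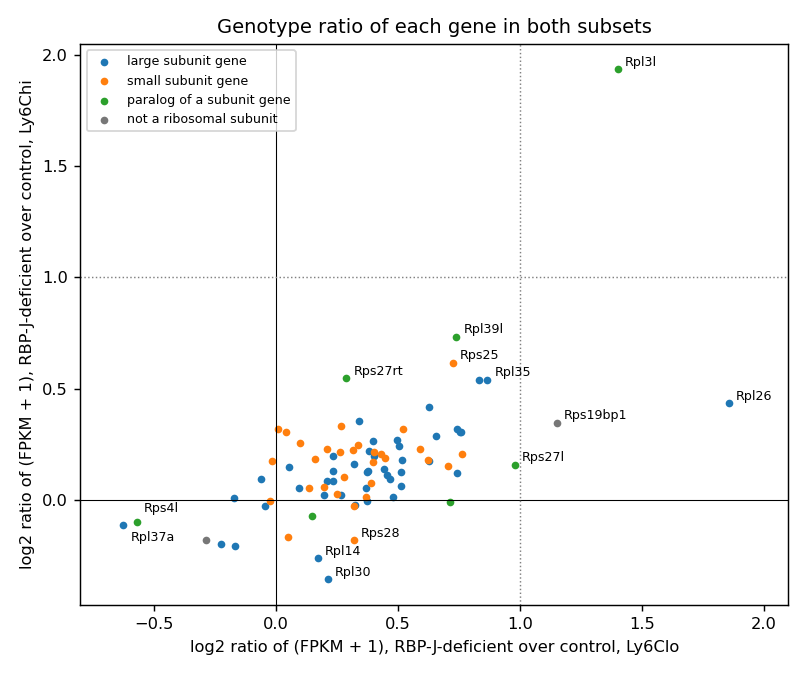
Genotype log2 ratio (RBP-J-deficient to control library, FPKM + 1) of each expressed ribosomal protein gene in Ly6Clo (x axis) and Ly6Chi monocytes (y axis), 1 point per gene, with dotted lines at 2-fold. Most points lie between 0 and 1 on the x axis and near 0.15 on the y axis, and Rpl3l is the only one past 2-fold in both subsets.

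The gene with the largest genotype ratio in Ly6Clo monocytes was Rpl26 (chromosome 11, 68901583 to 68906989, plus strand of GRCm38), a large subunit protein that also binds the mRNA of Trp53. Its FPKM was 58.3 in control Ly6Clo, 214 in RBP-J-deficient Ly6Clo, 62.6 in control Ly6Chi and 84.9 in RBP-J-deficient Ly6Chi monocytes. A single library, RBP-J-deficient Ly6Clo, was thus far above the other 3, and the log2 ratio was 1.86 in Ly6Clo and 0.43 in Ly6Chi monocytes. Rpl26 was the only core subunit gene whose genotype ratio passed 2-fold on FPKM. With a trend over GC content subtracted, Rpl35 (1.21) and Rpl29 (1.01) also passed it in Ly6Clo monocytes. Of the 50-base stretches of the Rpl26 transcript, 71.3% also occur in transcripts of other genes. How the authors' counting divided reads between such copies was not given in the sources used here.

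Rpl3l (chromosome 17, 24727820 to 24736143, plus strand) followed. It is a paralog of Rpl3 known from heart and skeletal muscle, where it replaces Rpl3 in ribosomes. Its FPKM was 17.4 in control Ly6Clo, 47.6 in RBP-J-deficient Ly6Clo, 2.98 in control Ly6Chi and 14.2 in RBP-J-deficient Ly6Chi monocytes. In both subsets the RBP-J-deficient library was higher, with log2 ratios of 1.40 and 1.93, the latter the largest of the members in Ly6Chi monocytes. None of its 50-base stretches occurs in another annotated gene, and no other annotated exon overlaps it. Rpl3 itself, the general form, had 340, 470, 426 and 455 in the same order, far above Rpl3l in each library.

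Rps19bp1 (chromosome 15, 80260615 to 80264315, minus strand), a nucleolar protein that binds Rps19 and the deacetylase Sirt1, had 54.3, 122, 53.0 and 67.7 in control Ly6Clo, RBP-J-deficient Ly6Clo, control Ly6Chi and RBP-J-deficient Ly6Chi monocytes. As for Rpl26, only RBP-J-deficient Ly6Clo stood apart, with log2 ratios of 1.15 and 0.35, and the former was 0.80 on TPM without Actb, under 2-fold. Rps27l, a paralog of Rps27 that Trp53 induces, had 439, 866, 628 and 701, and its ratios were 0.98 and 0.16. On TPM without Actb they were 0.62 and 0.01, and with a trend over GC content subtracted (called the GC correction) they were 0.58 and -0.0016.

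On FPKM, 3 core subunit genes had ratios of more than 0.5 in both subsets. Rpl35 had 0.87 in Ly6Clo and 0.54 in Ly6Chi monocytes. Rps25, a small subunit protein used by viral internal ribosome entry sites, had an FPKM of 736, 1218, 842 and 1292, and ratios of 0.73 and 0.62. Rpl5 had ratios of 0.83 and 0.54. In these 3 genes both RBP-J-deficient libraries lay above both control libraries. On TPM without Actb the ratios were smaller, with 0.51 and 0.39 for Rpl35, 0.37 and 0.47 for Rps25 and 0.48 and 0.39 for Rpl5, so that none was over 0.5 in both subsets. With the GC correction Rpl35 had 1.21 and 0.71 and Rps25 had 0.69 and 0.59, both over 0.5 in both subsets. Rpl5 had 0.42 and 0.37 there. These 3 genes also share much sequence with other genes, since 95.1% of the 50-base stretches of Rpl35, 72.8% of those of Rps25 and 93.8% of those of Rpl5 occur elsewhere. On the opposite strand, exons of Arpc5l and Wdr38 overlap Rpl35, exons of Ccdc84 and Trappc4 overlap Rps25, and Fam69a overlaps Rpl5. Whether the libraries keep strand was not given, so reads of these partners cannot be told apart. Snord21 also overlaps Rpl5, on the same strand.

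**Figure D3:**
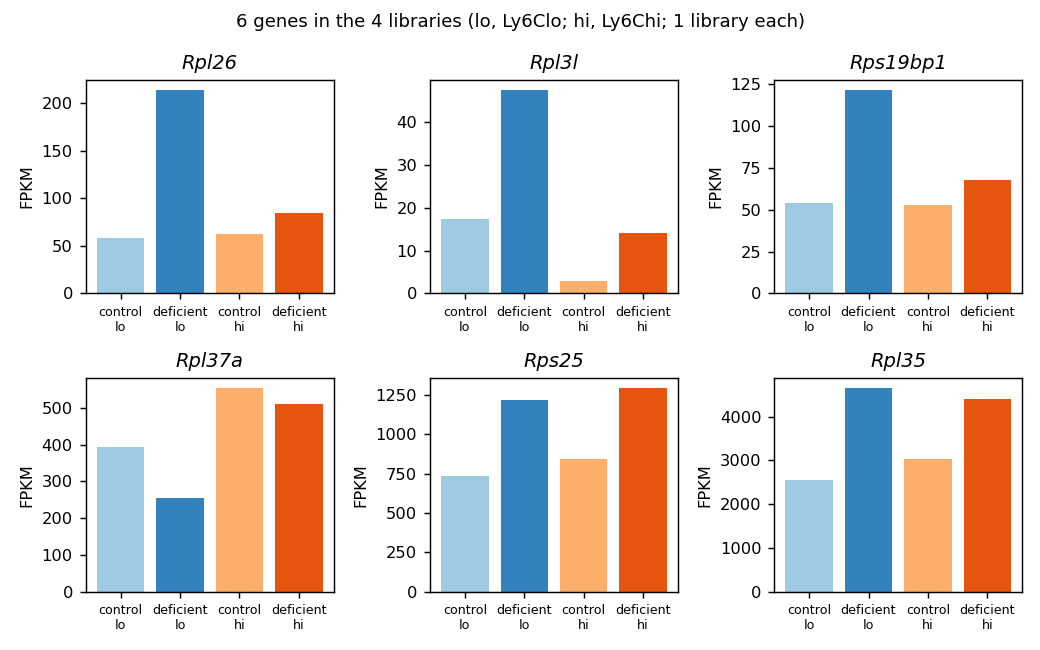
FPKM of 6 ribosomal protein genes in the 4 libraries (bars start at 0, 1 library per bar, with a separate y axis for each gene). Rpl26 and Rps19bp1 stand out in RBP-J-deficient Ly6Clo (214 and 122), Rps25 and Rpl35 are higher in both RBP-J-deficient libraries, and Rpl37a is lowest in RBP-J-deficient Ly6Clo (255).

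A few members went the other way. Rpl37a (chromosome 1, 72711290 to 72713813, plus strand), a zinc-finger protein of the large subunit, had an FPKM of 393 in control Ly6Clo, 255 in RBP-J-deficient Ly6Clo, 553 in control Ly6Chi and 512 in RBP-J-deficient Ly6Chi monocytes. Its log2 ratio in Ly6Clo monocytes, -0.62, was the lowest of the members, and in Ly6Chi monocytes it was -0.11. It was the 1 member past a fold of 1.5 in the lower direction. Rps4l, a paralog of Rps4x, had 15.9, 10.4, 18.6 and 17.3, with ratios of -0.57 and -0.10 on FPKM, but -0.07 and 0.15 with the GC correction. Rpl7l1, which takes part in assembly of the large subunit, had 51.2, 41.9, 56.8 and 50.1, with ratios of -0.28 and -0.18. Both were thus lowest in RBP-J-deficient Ly6Clo monocytes.

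Among the core subunit genes, Rpl15 (110, 93.9, 188 and 164) and Rpl13 (819, 729, 1291 and 1117) also had their lower value with RBP-J deficiency in both subsets. The ratios of Rpl15 were -0.22 and -0.20. Those of Rpl13 were -0.17 and -0.21 on FPKM, and the former turned to 0.20 with the GC correction. Rpl32 had 853, 757, 1462 and 1473, with ratios of -0.17 in Ly6Clo and 0.01 in Ly6Chi monocytes, the latter -0.14 on TPM without Actb and -0.02 with the GC correction. The genes with the lowest ratios in Ly6Chi monocytes were Rpl30 (32.7, 38.0, 30.9 and 23.9) with -0.36 and Rpl14 (139, 157, 232 and 193) with -0.26. These and Rps28 (270, 337, 453 and 399, with -0.18) were higher in RBP-J-deficient Ly6Clo monocytes on FPKM and lower there on TPM without Actb. Across the 75 core subunit genes the genotype ratios in both subsets, which share no library, had a Spearman correlation of 0.54, given as a description since the genes share their libraries. The ratio in Ly6Clo monocytes had a Spearman correlation of -0.17 with GC content, 0.16 with transcript length and 0.23 with the share of 50-base stretches found in other genes, all weak.

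Between subsets, ribosomal protein genes were higher in Ly6Chi than in Ly6Clo monocytes, and here short genes of similar GC did not move with them. In control mice the median log2 ratio, Ly6Chi over Ly6Clo, was 0.33, with an interquartile range from 0.22 to 0.48, against 0.00 for all expressed genes and 0.02 for short genes of similar GC. Of the 84 members, 78 were higher, where 49.8% of all expressed genes were. At least 2-fold, 0 were higher (7.75% of all expressed genes) and 1 was lower (5.21% of all expressed genes), and at least 1.5-fold 13 were higher (16.2% of all expressed genes). The large subunit genes had a median of 0.39, with 44 of 45 higher, and the small subunit genes of 0.30, with 28 of 30 higher. The difference was thus small for each gene but in the same direction for nearly all. On TPM without Actb the median was 0.33 and the direction of 0 members turned, and with the GC correction 3 turned.

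In RBP-J-deficient mice the median ratio on FPKM was 0.14, with an interquartile range from -0.08 to 0.27, against -0.02 for all expressed genes and -0.13 for short genes of similar GC. Of the 84 members, 55 were higher (48.8% of all expressed genes), 1 was at least 2-fold higher (10.6% of all expressed genes) and 2 were at least 2-fold lower (8.41% of all expressed genes). This was the comparison that the scaling moved most upward. On TPM the median was 0.35 and 74 of 84 were higher (58.5% of all expressed genes). All expressed genes had a median of 0.16 there and short genes of similar GC 0.04. The gap between the members and the short genes was present on both scales and in both genotypes. The 2 genotype comparisons and the 2 subset comparisons use the same 4 libraries and are not independent of each other. Other markers moved with the subset. The summed FPKM of 7 neutrophil markers (S100a8, S100a9, Retnlg, Camp, Ngp, Cxcr2 and Csf3r) was 268 and 169 in control and RBP-J-deficient Ly6Clo monocytes and 1378 and 1072 in Ly6Chi monocytes, with Camp at 0 in all but RBP-J-deficient Ly6Chi monocytes, Ngp at 0 in both control libraries, and S100a8, which Ly6Chi monocytes also express, giving most of the sum. That of 5 platelet markers was 126 and 124 against 350 and 293, with none at 0. Their part in the result was not tested.

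The genes with the largest subset ratios in control mice were core subunit genes. Rps9, a small subunit protein that binds ribosomal RNA early in assembly, had an FPKM of 955 in control Ly6Clo, 1236 in RBP-J-deficient Ly6Clo, 1754 in control Ly6Chi and 1770 in RBP-J-deficient Ly6Chi monocytes. Both Ly6Chi libraries lay above both Ly6Clo libraries, with ratios of 0.88 (control mice) and 0.52 (RBP-J-deficient mice). The same held for Rpl32 (0.78 and 0.96), Rpl15 (0.77 and 0.80), Rps28 (0.75 and 0.24) and Rpl14 (0.74 and 0.30), whose levels are given above. Rpl37a had the highest ratio between the RBP-J-deficient libraries, the only one to reach 2-fold on FPKM (1.22 on TPM without Actb, where Rpl15, Rpl32 and Rps15a also reached it), and a ratio of 0.49 between the control libraries.

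In control mice 6 members were lower in Ly6Chi than in Ly6Clo monocytes. Rpl3l was the only one past 2-fold, with ratios of -2.21 (control mice) and -1.68 (RBP-J-deficient mice). Rps27rt had -0.60, Rps19 -0.30, Rps21 (138, 158, 125 and 130.5 in the 4 libraries) -0.13, Rpl30 -0.08 and Rps19bp1 -0.03. Rpl26 was level between the control libraries (0.10) and had -1.32 between the RBP-J-deficient ones, the second member there past 2-fold lower, with its high value in RBP-J-deficient Ly6Clo monocytes in the denominator. In that library, markers that tell the subsets apart also differed from control Ly6Clo. The FPKM of Ccr2 was 59.2 (control) and 474 (RBP-J-deficient) and that of Ly6c2 was 10.9 and 78.3, where control Ly6Chi monocytes had 712 and 2013. Their part in the genotype ratios of the members was not tested.

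**Figure D4:**
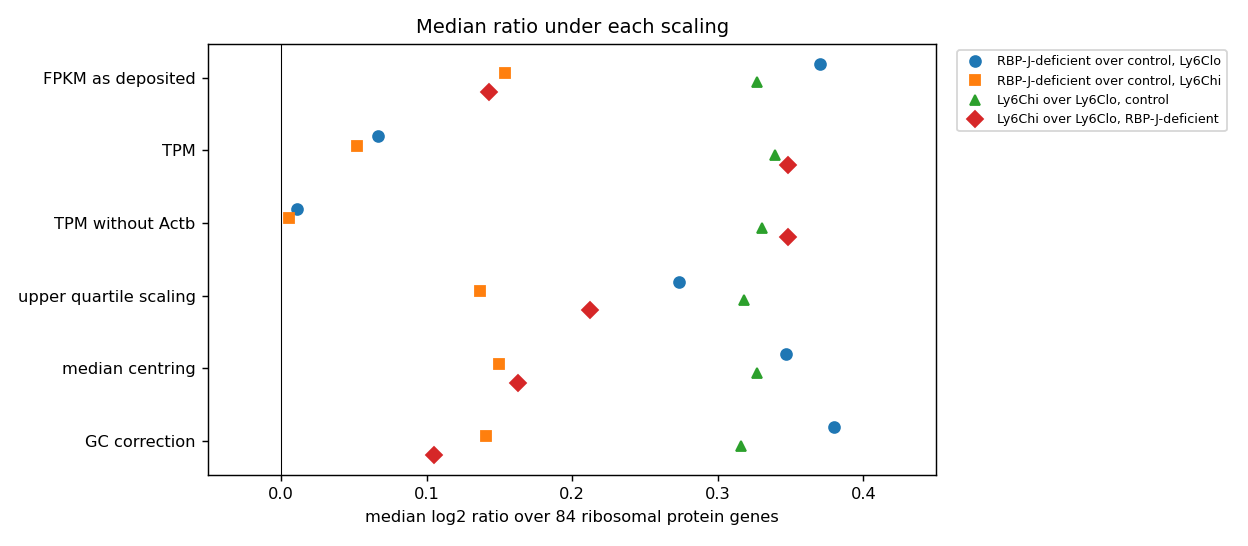
Median log2 ratio over the 84 expressed ribosomal protein genes in the 4 comparisons (symbols) under 6 scalings (rows). The genotype medians fall from 0.37 and 0.15 on FPKM to 0.01 and 0.01 on TPM without Actb, while Ly6Chi over Ly6Clo in control mice stays between 0.32 and 0.34.

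Other genes of translation were compared on the same scale. Ribosomal genes with names outside the rule include Gnb2l1, the small subunit scaffold also named RACK1, which had an FPKM of 194, 358, 218 and 319 in control Ly6Clo, RBP-J-deficient Ly6Clo, control Ly6Chi and RBP-J-deficient Ly6Chi monocytes. Fau, a fusion with a small subunit protein, had 1102, 1031, 1229 and 1237. The order of the libraries differed between these genes.

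The 14 elongation factors and other TOP mRNAs had medians of 0.49 and 0.20 for genotype, and of 0.42 and 0.09 for Ly6Chi over Ly6Clo in control and RBP-J-deficient mice. In control mice 11 of the 14 were higher in Ly6Chi monocytes, and the highest genotype ratios in Ly6Clo were those of Vim (1.98), which encodes an intermediate filament, and Hnrnpa1 (1.61), which binds RNA. The lowest were those of Eef1d (-0.37) and Eef2 (-0.51), the factor that moves the ribosome along the mRNA, whose FPKM was 136, 94.7, 212 and 207. Eef1a1, which delivers aminoacyl-tRNA, had 872, 1358, 1140 and 1386. This was the list with subset medians nearest those of the members.

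The 28 expressed initiation factors had medians of 0.33 and -0.01 for genotype and of -0.01 and -0.27 for subset, and 13 of 28 were higher in control Ly6Chi than control Ly6Clo monocytes. Their lowest genotype ratios in Ly6Clo were those of Eif5a (-1.34) and Eif4h (-1.16), and their highest those of Eif5b (1.03) and Eif2s2 (0.93). The 57 expressed ribosome assembly factors had medians of 0.22 and -0.03 for genotype and of -0.06 and -0.30 for subset. Rrn3, needed for transcription of ribosomal RNA, had the highest genotype ratio of this list in Ly6Clo (1.65), followed by Utp14a (1.19), and Tbl3 (-1.38) and Pes1 (-1.30) had the lowest. Unlike the members, initiation and assembly factors were not higher in Ly6Chi than in Ly6Clo monocytes as lists.

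The 77 genes of mitochondrial ribosomal proteins, which are short but belong to the other ribosome of the cell, had genotype medians of 0.52 and 0.24, above those of the cytosolic genes, and subset medians of 0.02 and -0.26. Their highest genotype ratios in Ly6Clo were those of Mrpl42 (1.78) and Mrpl33 (1.77), and their lowest those of Mrpl4 (-0.66) and Mrpl10 (-0.65). The 17 expressed regulators of growth had genotype medians of -0.15 and 0.00 and subset medians of -0.02 and 0.01. In Ly6Clo, Rheb, the activator of mTOR, had 1.01, Max 0.90, Rps6kb2 -1.27 and Mlst8, a subunit of the mTOR complexes, -1.48. With 1 library per group none of these differences between lists was tested.

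**Figure D5:**
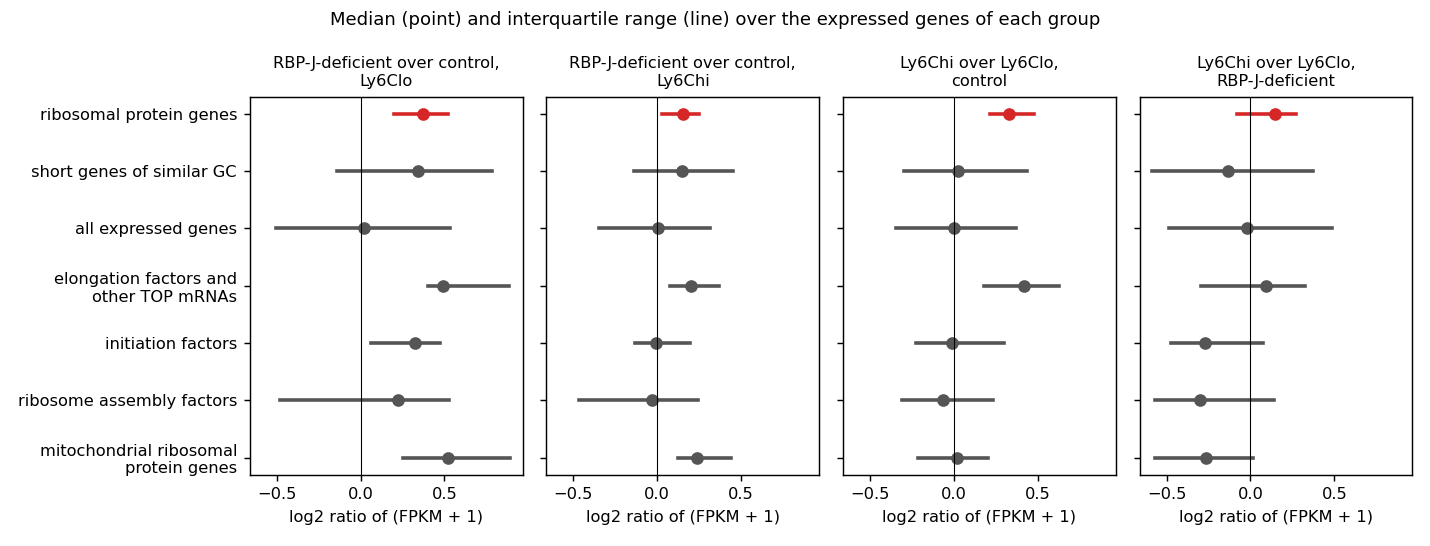
Median (point) and interquartile range (line) of the log2 ratio of (FPKM + 1) over the expressed genes of 7 groups in the 4 comparisons (panels). In the genotype panel of Ly6Clo the ribosomal protein genes (0.37) lie near short genes of similar GC (0.34) and under mitochondrial ribosomal protein genes (0.52), and in the control subset panel they (0.33) and the elongation factor list (0.42) lie above the rest.

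The paralogs differed widely in level. Rpl10l, a testis gene, is listed at 0 in all 4 libraries. Rpl39l, also known from testis, had 0.19, 0.99, 0.35 and 1.24 in control Ly6Clo, RBP-J-deficient Ly6Clo, control Ly6Chi and RBP-J-deficient Ly6Chi monocytes and passed the filter only through the last library, so its ratios of 0.74 and 0.73 come from values near the minimum of the filter. Rpl36al, a close copy of Rpl36a, had 379, 622, 589 and 585, above Rpl36a itself (142, 180, 166 and 213). Of their 50-base stretches, 63.3% (Rpl36al) and 85.5% (Rpl36a) also occur in transcripts of other genes. The part of read assignment in their order was not tested. Rpl22l1 had 121, 135, 127 and 120.5. Rps27rt, a retrogene of Rps27, had 1458, 1781, 958 and 1400. Its row in the table lies on chromosome 3, where the annotation has Rps27, and not on chromosome 9, where it has Rps27rt. Reads of both cannot be told apart in these values, and its promoter and transcript were therefore not used. For the other 84 members the row overlaps the annotated gene. Rps27 and Rpl34 have no row of their own and were not members.

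Most members share sequence with other genes. The core subunit genes are short (median transcript 835 bases against 2784 for expressed genes) with a median GC content of 51.6% against 49.8%. Of the 75, 74 share at least 1 stretch of 50 bases with a transcript of another gene, and the median share was 53.6%, from 0% to 95.1%. For the 38 expressed members with a share under 50% the median log2 ratios were 0.33 and 0.16 for genotype in Ly6Clo and Ly6Chi monocytes, and 0.31 and 0.21 for subset in control and RBP-J-deficient mice. These lie close to the medians of the 84 members in the first 3 comparisons. The members lie on 19 chromosomes, and exons of 39 of the 85 overlap an exon of another gene.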

How the data were processed

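The authors deposited 1 table of FPKM values for 4 libraries in all 6 pairs, with Cuffdiff columns. The submitters' processing notes name CASAVA 1.8, TopHat2 2.1.0, Cufflinks 2.2.1 and the build mm10, and the annotation used was not given. The table's columns of log2 fold change, test statistic, p-value, q-value and significance, and a column without a name that holds the ratio of (FPKM + 1), are the authors' comparisons of single libraries and were not used. Rows that share a symbol were summed. Log2 ratios of (FPKM + 1), a pseudocount of 1, were computed with Python 3.11.15, numpy 2.4.6, pandas 2.3.3 and statsmodels 0.14.6 over genes that reached an FPKM of 1 in any library. A count test could not be used. Length, GC content and 50-base stretches came from GENCODE M21 (GRCm38), and promoter windows from RefSeq (GRCm38.p6), which held windows for 63 members. The GC correction subtracted a lowess trend (fraction 0.3, 3 iterations) fitted where the mean FPKM reached 5 (6329 genes).

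The members and lists were chosen with earlier results of these data known. Genes named are Rbpj, the 5 members with the highest FPKM in control Ly6Clo, the 5 highest and 5 lowest ratios of each comparison among members with an FPKM of 1 or more in both libraries, the paralogs, members at 0, and the 2 highest and 2 lowest genotype ratios in Ly6Clo of each other list. Results of some genes under this rule are not reported here. Rplp0, Rplp1, Rplp2, Rps6, Rpl3, Rpl11, Rpl29, Rpl36a, Eef1a1 and the single markers were named after their values were seen. Lists of 8 cell types were summed. Other than the neutrophil and platelet lists, B cell markers summed to 68.1, 102, 26.2 and 47.2 in control Ly6Clo, RBP-J-deficient Ly6Clo, control Ly6Chi and RBP-J-deficient Ly6Chi, erythroid markers to 1583, 276, 360 and 387, monocyte markers to 2481, 1618, 3661 and 3204, dendritic cell markers to 2.50, 0.71, 13.3 and 5.62, NK cell markers to 3.22, 2.76, 5.37 and 3.87 (Eomes at 0 in all), and T cell markers to 0.61, 0.07, 0.97 and 1.93. Alternatives were pseudocounts of 0.1 and 5, filters, TPM, median centring, GC correction, core subunit genes only, rows with a successful estimate, and other folds. TPM without Actb, upper quartile scaling, the limit on shared stretches and shares without Actb were chosen after seeing the data.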

Additional observations from a re-analysis of the deposited data

Results flagged for a closer look

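Of the named ribosomal protein genes, 7 had genotype log2 ratios of opposite sign in the 2 subsets (RBP-J-deficient over control, on FPKM + 1), and the difference between subsets was not tested. Rpl36al had 0.71 in Ly6Clo and -0.010 in Ly6Chi monocytes, and Rps28 had 0.32 and -0.18. Rpl30 had 0.21 and -0.36, Rpl14 had 0.17 and -0.26, and Rpl22l1 had 0.15 and -0.070. Rpl32 had -0.17 and 0.010, and Rps19 had -0.017 and 0.18. On TPM without Actb, 2 of the 7 kept opposite signs, Rpl36al with 0.35 and -0.16 and Rps19 with -0.38 and 0.03, and the other 5 were lower in both subsets. With the GC correction Rps19 was higher in both (0.50 and 0.44), Rpl22l1 (-0.31 and -0.27) and Rpl32 (-0.23 and -0.02) were lower in both, and Rpl36al, Rpl14, Rpl30 and Rps28 kept opposite signs, so that only Rpl36al kept them under both of these alternatives.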

How the results depend on the processing

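Of 176 medians, counts and shares recomputed under alternatives, 146 stayed within the limits set (0.1 for a log2 median, 1.5 times for a count, 1.1 times for a share) and 30 moved. No median changed sign. Of 8 ratios of named members past 2-fold, 0 reversed. This says little, because pseudocounts and filters cannot turn a sign and rescaling to TPM shifts a ratio by less than 2-fold. Smaller ratios did turn: of 104 ratios of named members over the 4 comparisons, the sign turned for 15 on TPM without Actb, 14 on TPM, 11 with the GC correction, 3 with upper quartile scaling and 1 with median centring. Rescaling to TPM gave medians of 0.067 for genotype in Ly6Clo, 0.052 for genotype in Ly6Chi and 0.35 for Ly6Chi over Ly6Clo in RBP-J-deficient mice, and TPM without Actb gave 0.011, 0.0054 and 0.35, because the summed FPKM differed between libraries. In the rest of this paragraph, a number in brackets is the count over all 10240 expressed genes under the same setting. For genotype in Ly6Clo, 5 members were at least 2-fold higher with the GC correction (812). On FPKM, 1 was so among core subunit genes (919), and 20 were higher at a fold of 1.5 (2360). At the study's fold of 5.7, 0 were higher (28), and 1 was lower at a fold of 1.5 (2250). For genotype in Ly6Chi, 2 were higher with a pseudocount of 0.1 (591) and 0 among core subunit genes (270). At a fold of 1.5, 3 were higher (1119), and 0 at the study's fold (16). For Ly6Chi over Ly6Clo in control mice, 13 were higher (1657) and 2 lower (1402) at a fold of 1.5. Among core subunit genes 0 were lower (533), and 0 at the study's fold of 0.2 (88). In RBP-J-deficient mice, 0 were higher with a pseudocount of 5 (400), and 4 on TPM and on TPM without Actb (1582 each). With the GC correction 3 were higher (984), and with upper quartile scaling 2 (1218). At a fold of 1.5, 7 were higher (2186), and 0 at the study's fold (61). In the same comparison, 1 was lower among core subunit genes and among members with under 50% shared stretches (861 each). At a fold of 1.5, 4 were lower (2119), and 0 at the study's fold (44). Other than for the folds and subsets of genes, the cause was not tested.

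With 1 library per group, the spread between samples is not known, leaving out a library leaves no comparison, and no ratio has an error. Depth is unknown, so no counting interval is given. Values of members with near-identical copies, overlapping exons or a failed estimate elsewhere in the library depend on how the authors' program assigned reads. No paired analysis was possible because each group holds 1 library.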

Other observations

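Ribosomal protein genes host small nucleolar RNAs in their introns. Inside 30 members, 59 small nucleolar RNA genes are annotated, of which 34 have a row in the table, and 29 of these are listed at 0 in all 4 libraries. The merged row of Rps27 and Rps27rt had an FPKM of 3292 in control Ly6Clo, 3195 in RBP-J-deficient Ly6Clo, 2949 in control Ly6Chi and 3084 in RBP-J-deficient Ly6Chi monocytes. The merged row of Rpl34 and Rpl34-ps1 had 285, 332, 317 and 386, and Rpl34-ps1 alone had 314, 463, 412 and 488.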
